A study of Mus musculus with 2 samples.

Results

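The smooth muscle contractile genes of the myoepithelium are 10 genes, Acta2, Actg2, Myh11, Cnn1, Tagln, Mylk, Myl9, Tpm1, Tpm2 and Oxtr, among the 55536 genes of the deposited table. Each matched 1 row by its symbol in GENCODE mouse release M21. They were chosen by name with the C3G and DMSO values of these 2 libraries already known, so their common direction is a description and supports nothing. The study compared mammary tumors of MMTV-PyVT mice given cyanidin-3-glucoside (C3G), a plant anthocyanin, with tumors of such mice given the solvent dimethyl sulfoxide (DMSO). Both groups carry the transgene for polyoma virus middle T antigen, which the MMTV promoter drives mainly in mammary epithelium, and dosing began at ductal hyperplasia and ended at a preset tumor burden. The sources used here do not give dose, age or strain, or how many tumors or mice stand behind a library.

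RNA was sequenced in 1 library per group, with 12192275 gene-assigned reads for DMSO and 16081110 for C3G, recovered from the expression values. No value below therefore has a replicate check and no test was possible; differences between treatments and between individual tumors cannot be told apart. Intervals in parentheses are 95% intervals for counting error only. Expression is in TPM, an abundance that is scaled by gene length, so levels of different genes can be compared. The luminal keratin gene Krt8 stood at 1890 TPM under DMSO and 1420 TPM under C3G, and the epithelial adhesion gene Epcam at 1484 and 1399 TPM, so both libraries held abundant epithelial RNA; both genes were named as usual epithelial markers, not for their ratios.

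Myoepithelial cells form the basal layer of mammary ducts and alveoli, are epithelial by origin and carry basal keratins, yet build the contractile apparatus of smooth muscle. Oxytocin released at suckling binds its receptor on these cells, calcium rises, myosin light chain kinase phosphorylates the regulatory light chain, and smooth muscle myosin pulls on actin filaments to eject milk. The same genes are active in vascular smooth muscle and in myofibroblasts, and the myoepithelial layer is commonly thinned or lost as mammary lesions become invasive. In smooth muscle, many of them are driven by serum response factor (SRF), which binds a short DNA element called the CArG box together with cofactors of the myocardin family.

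Because the members were lower together, their promoters were searched for that element. RefSeq promoter windows on GRCm38.p6, from 250 bases before to 50 after the start of transcription, were held for 7 of the 10 genes (Acta2, Cnn1, Mylk, Myl9, Oxtr, Tpm1 and Tpm2). A full CArG box is CC, then 6 letters that are each A or T, then GG, a form that reads the same on both strands. Among the 7 windows 1 held it, that of Myl9, against 1.63% of all 32851 windows. A form with a single G or C among the 6 inner letters, added after the first search, was found in the windows of Acta2 and Myl9, against 8.50% of all windows. The sequences below are shown because they hold these matches, in capitals, with 10 bases on each side, read 5′ to 3′ on the strand of the gene. The first 2 lie on chr2:156775293-156775322 and chr2:156775355-156775384, both on the plus strand, in no M21 exon, and begin their matches 161 and 99 bases before the RefSeq start of Myl9. The other 2 lie on chr19:34255438-34255467 and chr19:34255388-34255417, on the minus strand, and begin 84 and 34 bases before the RefSeq start of Acta2, where M21 places an exon of a longer Acta2 transcript.
Myl9 full CArG box: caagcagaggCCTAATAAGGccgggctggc
Myl9 second box: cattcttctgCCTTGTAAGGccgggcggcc
Acta2 first box: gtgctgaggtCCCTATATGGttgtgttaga
Acta2 second box: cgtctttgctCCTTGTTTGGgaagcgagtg

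The core of the element bound by TEAD factors, CATTCC on either strand, was found in 3 of the 7 windows (Acta2, Mylk and Tpm1), against 14.7% of all windows. The letters TATAAA on either strand, also searched later, were in none of the 7, against 13.6% of all. No strict or relaxed CArG box was in the windows of Cnn1, Mylk, Oxtr, Tpm1 or Tpm2, which says only that these letters are not within those windows. The promoter with 2 relaxed boxes and that with the full box belong to Acta2 and Myl9, the members with the highest levels in the DMSO tumor. A link between boxes and levels was not tested, and Actg2, Myh11 and Tagln had no window to search. The windows of Cnn1, Oxtr and Tpm2 held none of the 4 motifs.

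All 10 genes had less TPM in the C3G tumor than in the DMSO tumor. A call of lower by size needed 5 TPM in at least 1 library and a log2((C3G TPM + 1)/(DMSO TPM + 1)) of -1 or below. All 10 reached 5 TPM in the DMSO library, 9 of them in both, and 8 were called lower. Over all 12780 genes that reached 5 TPM, 4.30% were called lower and 3.10% higher; the members' count is only set beside this, since the same contrast guided their choice. Their median log2 ratio was -1.20, while that of the 17468 genes with a mean of at least 1 TPM was 0.10. Centred on genes with a mean of at least 10 TPM, which shifts every ratio by 0.12, the calls over all genes were 663 lower and 298 higher in place of 550 and 396, and the members called lower were again 8. Together the members summed to 2127 TPM in the DMSO library against 958 TPM in the C3G library, 2.22-fold lower, or 2.21-fold with Acta2 left out. Short genes had lower ratios than long ones in these libraries: among genes with a mean of at least 5 TPM sorted into 8 length classes, the median log2 ratio was -0.20 in the class of Myl9 (1162 exon bases) and 0.21 in that of Myh11 (7599 exon bases). Bulk tumor RNA does not show which cells carried these RNAs, myoepithelial or other. A smaller share of such cells and less of these RNAs per cell cannot be told apart.

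**Figure D1:**
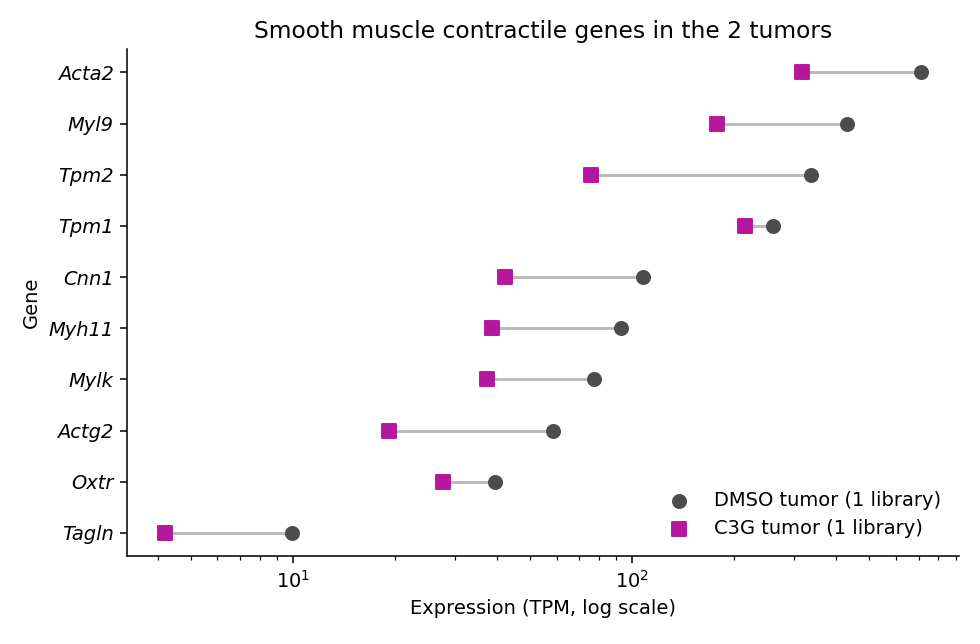
Expression of the 10 genes in TPM on a log axis, with 1 circle for the DMSO library and 1 square for the C3G library, ordered by the DMSO level. Each square lies left of its circle, from 9.98 and 4.21 TPM for Tagln to 712 and 318 TPM for Acta2, and the gaps of Tpm1 and Oxtr are the smallest.

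The actins form the thin filament. Acta2, smooth muscle alpha actin and the usual marker of myoepithelium in sections (mm10 chromosome 19, 34241090 to 34255590), had 712 TPM in the DMSO library against 318 TPM in the C3G library. It was the member with the highest level in both libraries, ranking 164 and 363 among all genes by TPM, and rested on 6781 and 3839 reads. The ratio was 2.24-fold lower with C3G (2.15 to 2.33). Actg2, the gamma actin of enteric and other visceral smooth muscle (chromosome 6, 83512905 to 83536265), was at 58.4 against 19.3 TPM, 3.03-fold lower (2.52 to 3.65). The proteins of these genes are close relatives, but no stretch of 50 bases in the M21 transcripts of Actg2 occurred in another gene, and 0.326% of those of Acta2 did, shared with Actg1 and 5 actin pseudogenes or predicted genes. With the TPM of both smooth muscle actins added, the log2 ratio was -1.19.

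The motor and its control were lower by a similar fold. Myh11, the smooth muscle myosin heavy chain (chromosome 16, 14194535 to 14291372), stood at 92.9 TPM under DMSO and 38.7 TPM under C3G, 2.40-fold lower (2.26 to 2.55). Its regulatory light chain gene Myl9 (chromosome 2, 156775420 to 156781658) was at 432 against 179 TPM, 2.41-fold lower (2.25 to 2.60). In TPM the motor genes kept their proportion: Myl9 was at 4.64 times the level of Myh11 under DMSO and 4.62 times under C3G. With length and GC trends removed, the log2 ratio was -1.09 for Myl9 and -1.31 for Myh11, in place of -1.27 and -1.24. Mylk, the kinase that switches the light chain on (chromosome 16, 34745210 to 35002420), was at 77.4 against 37.3 TPM, 2.07-fold lower (1.97 to 2.18). Its log2 ratio of -1.03 was the closest to the threshold among the 8 called, and the interval of its fold spans 2. The Mylk locus also encodes a longer nonmuscle kinase and the short protein telokin, which the gene-level value does not separate.

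Calponin, transgelin and the tropomyosins decorate or stabilise the actin filament. Cnn1, calponin of differentiated smooth muscle (chromosome 9, 22099216 to 22109630), stood at 108 TPM under DMSO and 42.2 TPM under C3G, 2.56-fold lower (2.33 to 2.83). Tagln, also called SM22 alpha (chromosome 9, 45929619 to 45936058), had the lowest level of the 10, at 9.98 against 4.21 TPM, from 86 and 46 reads. Its fold of 2.37 lower has the widest interval (1.64 to 3.47). Acta2 TPM was 71.4 times that of Tagln under DMSO and 75.6 times under C3G.

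The low level of Tagln goes with an annotated overlap. Of its 1988 exon bases, 1349 (67.9%) are also exon bases of another gene, 1241 of them in the predicted gene Gm48529 and 108 in the protease gene Pcsk7. The library kit does not mark strand, and how reads in shared exons were counted is not given in the sources used here. Gm48529 stood at 5.82 TPM under DMSO and 7.10 TPM under C3G and Pcsk7 at 38.9 and 47.0 TPM, both higher with C3G while Tagln was lower. The part of the overlap in the Tagln values was not tested. Mylk had 6.85% of its exon bases under other genes, E130310I04Rik and Gm21691, both under 1 TPM in each library, and the other 8 members had no such overlap.

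Tropomyosins, the coiled coils that lie along actin, gave both the lowest and the highest log2 ratio among the members. Tpm2, beta tropomyosin (chromosome 4, 43514711 to 43523765), had 337 TPM in the DMSO library against 75.9 TPM in the C3G library, from 4245 and 1213 reads. It was 4.44-fold lower (4.16 to 4.73), with a log2 ratio of -2.13, and 105 of the 12780 genes that reached 5 TPM had a lower ratio. Tpm1, alpha tropomyosin (chromosome 9, 67022590 to 67049406), stood at 260 against 216 TPM, 1.21-fold lower (1.17 to 1.25), and was not called. Tpm1 makes muscle and nonmuscle proteins by alternative promoters and exons, which 1 value per gene merges. The order of these genes changed between the tumors: Tpm2 TPM was 1.29 times that of Tpm1 with DMSO and 0.352 times with C3G.

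Oxtr, the oxytocin receptor that starts the contraction (chromosome 6, 112473683 to 112489943), stood at 39.5 TPM under DMSO and 27.7 TPM under C3G. At 1.43-fold lower (1.29 to 1.58) it was not called. Receptors for the related hormone vasopressin were near the limit of detection, with Avpr1a at 0.259 and 0.273 TPM, Avpr2 at 0.879 and 0.378 TPM, and Avpr1b at 0 in both.

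Ordered by fold, the members ran from Tpm2 through Actg2, Cnn1, Myl9, Myh11, Tagln, Acta2 and Mylk to Oxtr and Tpm1. Intervals overlapped for 15 of the 45 pairs, all within the 7 genes from Actg2 to Mylk. The interval of Tpm2 lay above all others and those of Oxtr and Tpm1 below all others and apart from each other. Since these intervals hold counting error alone, the order says nothing about how the genes would rank in other tumors.

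**Figure D2:**
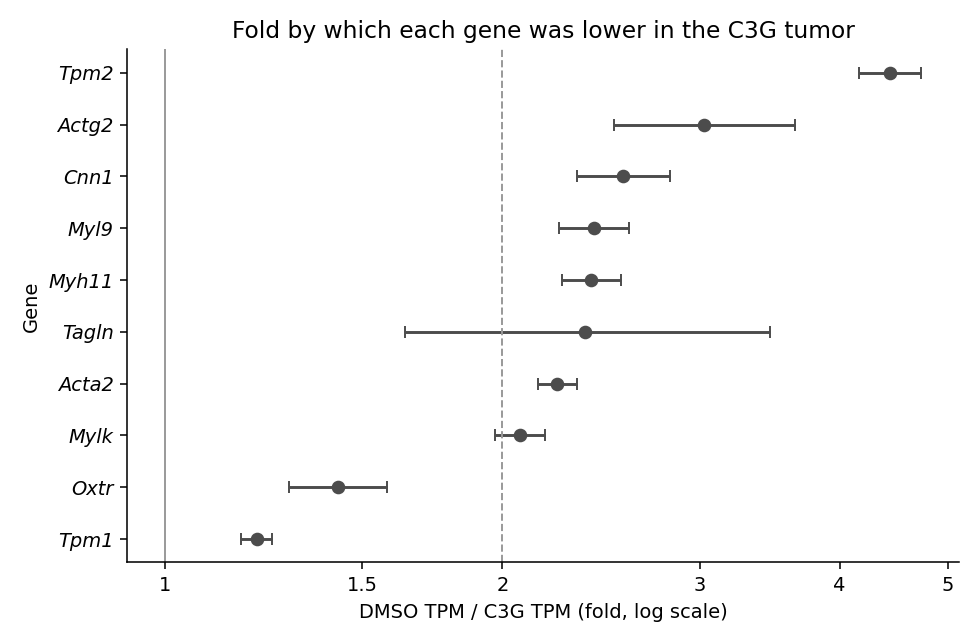
DMSO TPM divided by C3G TPM for each gene on a log axis, with bars for the 95% interval from counting error, a solid line at 1 and a dashed line at 2. Tpm2 stands alone at 4.44, a middle group of 7 genes lies between 2.07 and 3.03, and Oxtr (1.43) and Tpm1 (1.21) lie under 2.

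Most members have relatives that serve contraction or shape in nonmuscle cells, and these were compared within each family. Smooth muscle Acta2 made up 12.5% of the summed actin TPM under DMSO and 6.25% under C3G, and Actg2 1.02% and 0.379%. The cytoplasmic actins differed from each other, with Actb at 3836 against 3046 TPM and Actg1 at 1100 against 1706 TPM, and the 4 actins outside the smooth muscle pair summed to 4937 and 4753 TPM. Skeletal Acta1 (1.20 and 0.948 TPM) and cardiac Actc1 (0 and 0.112 TPM) were close to 0.

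Myh11 made up 31.8% of the class II myosin heavy chain TPM under DMSO and 19.6% under C3G. Among its nonmuscle relatives Myh9 was at 132 against 115 TPM, Myh10 at 8.65 against 9.99 TPM and Myh14, common in epithelium, at 58.6 against 33.8 TPM. For Cnn1 the share of calponin TPM was 24.2% and 12.2%, with the broadly expressed Cnn2 at 118 against 82.9 TPM and Cnn3 at 221 against 222 TPM. Tagln was 3.16% and 1.82% of the transgelins, of which Tagln2 was by far the most abundant at 305 against 227 TPM.

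Myl9 held 70.8% of the regulatory light chain TPM with DMSO and 58.5% with C3G, while the nonmuscle light chains Myl12a (146 against 109 TPM) and Myl12b (29.4 against 16.8 TPM) were below their DMSO levels too. Tpm2 made up 25.4% and 7.39% of tropomyosin TPM and Tpm1 19.64% and 21.01%. The tropomyosins Tpm3 (92.4 and 88.3 TPM) and Tpm4 (637 and 647 TPM) were nearly level. Of the kinases, Mylk2, Mylk3 and Mylk4 were each under 0.4 TPM in both libraries, so Mylk was nearly the sole member of its family measured. Of the 8 genes in the other families, 7 had the lower share in the C3G tumor, Tpm1 being the exception, though Myh14 and Myl12b were lower as well without being called.

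**Figure D3:**
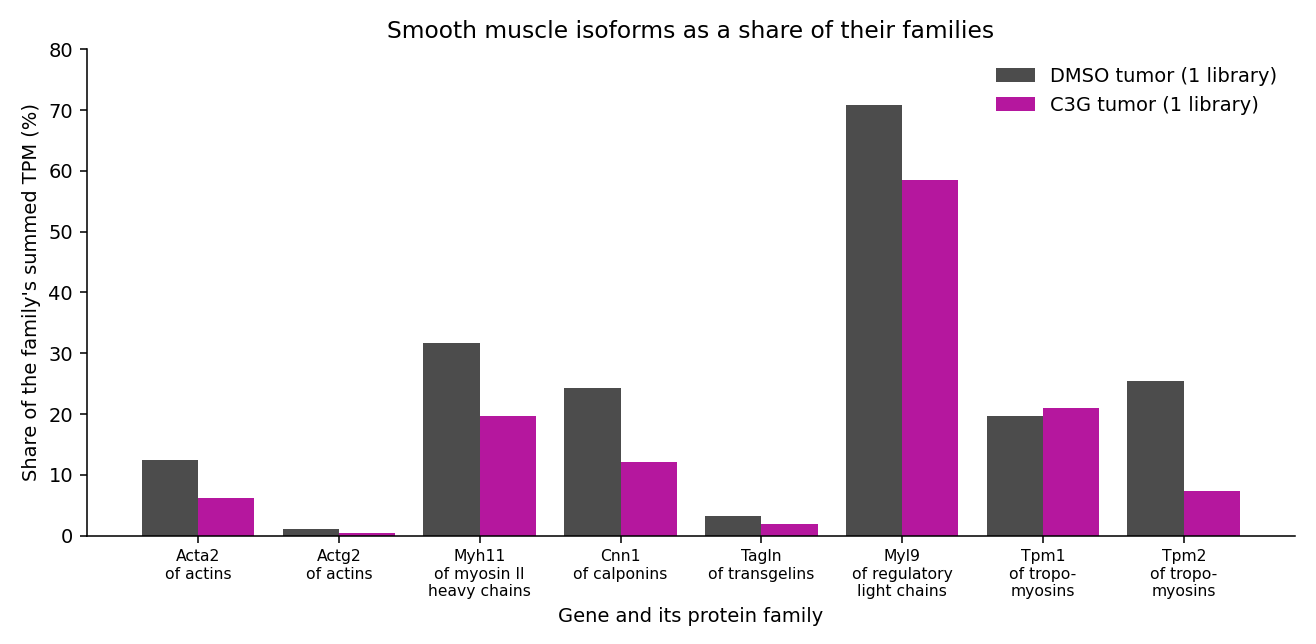
Percentage of the summed TPM of each protein family contributed by the named gene, with a grey bar for the DMSO library and a magenta bar for the C3G library. The share was lower with C3G for 7 of the 8 genes, as from 12.5% to 6.25% for Acta2 and from 25.4% to 7.39% for Tpm2, and slightly higher for Tpm1.

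Other genes of the contraction pathway lay on both sides of 0. Of 57 such genes, listed with earlier results of these data known, 51 had a mean of at least 1 TPM. Of these, 31 were below 0 and 20 above, with a median log2 ratio of -0.07. Called lower were 3 and called higher none, against 4.30% and 3.10% over all genes that reached 5 TPM. Synpo2, Prkg1, Plcb1, Fhl1 and Kcnmb1, among the 51, did not reach 5 TPM and could not be called. With shares this small, so few calls carry little information. Centred on genes with a mean of at least 10 TPM, 36 were below 0, the median was -0.19 and 4 were called lower, Pcp4l1 being added. The 3 called without centring were Lmod1, leiomodin, which nucleates actin filaments in smooth muscle (27.5 against 9.45 TPM, 2.91-fold lower), Nexn, the actin-binding protein nexilin (31.5 against 10.7 TPM, 2.96-fold lower), and Ppp1r14a. The last encodes CPI-17, an inhibitor of the phosphatase that switches the light chain off, and stood at 9.95 against 3.20 TPM, from 59 and 24 reads.

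Filament and anchoring genes (15 measured, 13 below 0) had a median of -0.17. Beside Lmod1, the largest ratios were those of Pcp4l1 (5.70 against 2.42 TPM), the LIM domain gene Pdlim7 (38.5 against 21.4 TPM) and, in the other direction, the Z-disc gene Ldb3 (17.8 against 28.2 TPM). Smtn, smoothelin, at 51.7 against 47.1 TPM, and Cald1, caldesmon, at 217 against 156 TPM, are named here after their values were seen. Both bind actin in smooth muscle as calponin does, and were 1.10-fold (1.01 to 1.20) and 1.39-fold (1.35 to 1.43) lower, intervals that do not reach that of Cnn1.

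Light chain regulators (13 measured, 10 below 0) had a median of -0.09. After Ppp1r14a came the phosphatase subunit Ppp1cb (170 against 235 TPM) and the calmodulin gene Calm3 (220 against 161 TPM). Genes that couple the oxytocin receptor to calcium (12 measured, 5 below 0) had a median of 0.04, or -0.08 when centred as above, and none was called. The calcium release channels Itpr1 (9.78 against 16.0 TPM) and Itpr3 (30.0 against 42.8 TPM) and the calcium pump Atp2a2 (79.96 against 100.5 TPM) were above their DMSO levels, and the channel Orai1 (35.3 against 26.5 TPM) below. Kcnmb1, the smooth muscle beta subunit of a calcium-activated potassium channel, named after its values were seen, stood at 4.73 against 1.22 TPM. It was 3.89-fold lower (86 and 28 reads) but did not reach the 5 TPM needed for a call.

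The list of SRF and its partners also held the target genes Ccn1 and Ccn2 and the gene of the actin-binding protein nexilin, Nexn. This list had a median of 0.21. Of its 11 measured genes 3 were below 0: Nexn, Ccn1 and Tead1. Srf itself stood at 31.1 against 36.0 TPM and its cofactors Mrtfa at 14.9 against 15.9 TPM and Mrtfb at 23.9 against 27.8 TPM, all 3 named outside the rule; centring left Srf and Mrtfb above 0 and put Mrtfa at -0.04. Myocd, the cofactor restricted to cardiac and smooth muscle, had 0 reads in the DMSO library, which allows up to 0.108 TPM, and 2 in the C3G library (0.0567 TPM). The largest ratios after Nexn belonged to the secreted matricellular genes Ccn2 (68.0 against 130 TPM) and Ccn1 (1046 against 671 TPM), which are targets of this pathway and of YAP and which lay on opposite sides of 0, followed by Tead1 (17.0 against 13.2 TPM).

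**Figure D4:**
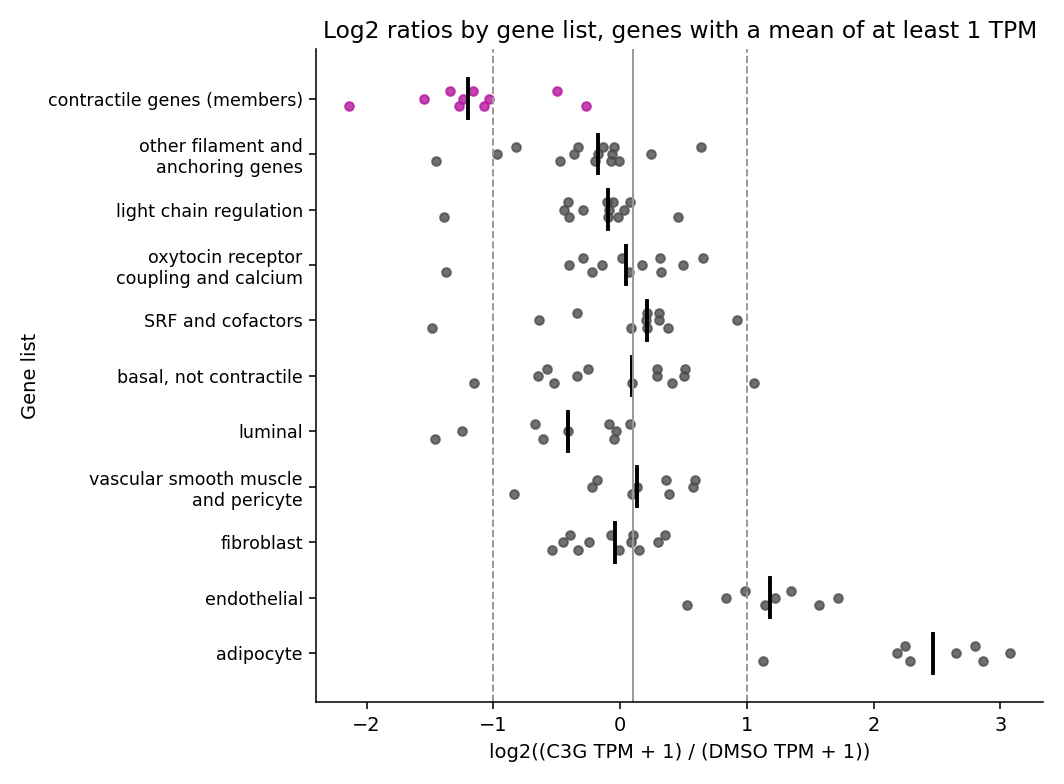
Log2 ratio of C3G to DMSO for each gene with a mean of at least 1 TPM, by list, with a thick bar at each median, a solid line at the median of all such genes (0.10) and dashed lines at -1 and 1. The contractile genes have a median of -1.20, the other smooth muscle, basal, vascular smooth muscle and fibroblast lists have medians between -0.17 and 0.21, the luminal list lies at -0.41, and the endothelial and adipocyte lists lie above 1.

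Markers of the cell types that could carry these genes were set beside them. Of 13 basal markers that are not part of the contractile apparatus, 6 were below 0 and 7 above, with a median of 0.10, or -0.02 when centred, and summed levels of 2504 TPM under DMSO and 2285 TPM under C3G. In each direction 1 was called, the growth factor binding protein gene Igfbp2 (362 against 162 TPM) lower and the galectin gene Lgals7 (374 against 777 TPM) higher; centring ended the call of Lgals7 and removal of length and GC trends that of Igfbp2. The next in size were Krt17 (33.2 against 20.8 TPM) and Sparc (1452 against 1013 TPM), a matrix gene that fibroblasts also express. Sparc gave the largest part of both sums, and it differed between the libraries by more TPM than the sums did.

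The basal keratins Krt5, Krt14 and Krt17 summed to 153 TPM in the DMSO library against 135 TPM in the C3G library. The members summed to 13.9 times that keratin level with DMSO and 7.09 times with C3G. Divided by it, Actg2, Myh11, Cnn1, Myl9 and Tpm2 were still called lower, with log2 ratios from -1.96 to -1.06. The division raised each member's ratio by the same amount, and calls over all genes were not counted after it. Acta2 (-0.98), Tagln (-0.90) and Mylk (-0.85) then missed the threshold, and Tpm1 came to -0.09. The keratins themselves differed in direction: Krt5 stood at 36.2 against 48.4 TPM, Krt14 at 83.7 against 66.0 TPM and Krt17 at 33.2 against 20.8 TPM. Single keratins would therefore give other values, and Krt17 was lower by a larger fold (1.60) than Oxtr and Tpm1.

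Vascular smooth muscle and pericyte markers summed to 132 and 137 TPM. Of 9 measured 6 were above 0, or 5 when centred. None was called, but Cspg4, Abcc9, Kcnj8 and Higd1b did not reach 5 TPM in either library and could not be. Over all genes that reached 5 TPM, 4.30% were called lower and 3.10% higher. The lack of calls in so short a list therefore carries little information. Rgs5, a pericyte marker, stood at 17.6 against 27.0 TPM, Pdgfrb at 8.42 against 9.34 TPM, Mcam at 61.8 against 54.3 TPM and Ndufa4l2 at 6.11 against 2.99 TPM. Markers of fibroblasts and myofibroblasts, in 1 list, summed to 1768 and 1502 TPM, and the part of myofibroblasts in these values was not tested. None of 12 was called, against the same shares over all genes, and Fap could not be, as it stayed under 5 TPM. The median of these markers was -0.04 with 7 below 0, or -0.16 with 9 below 0 when centred. The largest ratio among them was that of the collagen gene Col1a1 (587 against 404 TPM), and Pi16, Col1a2 and Dcn followed at log2 ratios of -0.45 to -0.33. Skeletal muscle markers were nearly absent, with 4 of 12 measured and a median of -0.21: Ckm, Myh1 and Tnnc2 had no reads in either library, and only Mb exceeded 5 TPM.

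In the same C3G library all 8 adipocyte markers were above 0, with summed levels of 230 TPM under DMSO and 1354 TPM under C3G, and 7 were called higher. All 8 endothelial markers were above 0 too, with sums of 29.6 and 79.6 TPM, and 5 were called higher. Of 9 luminal markers 8 were below 0 and 2 were called lower, with a median of -0.41. Centred, all 9 were below 0 at a median of -0.53. The called genes were the keratin gene Krt19 (678 against 246 TPM) and Foxa1 (19.2 against 7.49 TPM), which encodes a factor of hormone-responsive luminal cells, and Krt18 (2824 against 1769 TPM) and Gata3 (365 against 239 TPM) came next. The part of cell composition in the values of the contractile genes was not tested.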

How the data were processed

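RNA was measured in 1 mammary tumor library per treatment. Per the labels' protocols, RNA came from RNeasy Plus columns and libraries from the TruSeq RNA kit, version 2. Per the submitters' processing notes, Trimmomatic 0.38, featureCounts 2.0.0 and mm10 were used; the aligner is not given in the sources used here. The authors deposited TPM for 55536 genes, 1 column per library, and all identifiers matched GENCODE M21.

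In each library, TPM multiplied by exon length fell on whole steps for 100% of values above 0 (tolerance 0.01), and each step was read as 1 counted read. Fold intervals are exact conditional binomial intervals from those reads, and cover counting error only. Ratios and calls use log2(TPM + 1), a scale that understates changes of low genes. Scripts used Python 3.11.15 and scipy 1.17.1 and were tested on simulated libraries.

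The members and lists were chosen with earlier results of these data known. The text names all members and most of their paralogs. Per other list it names up to 4 genes with the largest log2 ratio in size and at least 5 TPM in the higher library. Some genes are named outside this rule, among them Krt8, Epcam, Krt5, Krt14, Smtn, Cald1, Kcnmb1, Srf and its cofactors. Protein sequences were not used here.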

Additional observations from a re-analysis of the deposited data

How the results depend on the processing

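With 1 library per group no replicate could be left out, and no paired analysis was possible because each group has a single sample. The 10 members kept a log2 ratio below 0 under all 7 alternatives run on each of them (2 other pseudocounts, 2 centrings, rescaling, removal of length and GC trends, division by basal keratins), with Tpm1 ranging from -0.39 to -0.09 and Tpm2 from -2.26 to -1.96. Another pseudocount cannot change the sign of a ratio, and both centrings moved the members' ratios down. These settings therefore could not have changed the direction. Divided by Krt5, Krt14 and Krt17, 5 members in place of 8 were called lower, without a count over all genes to set beside it. The members' median was then -1.02 in place of -1.20. With length and GC trends removed the median was -1.13 and 7 were called, as Tagln came to -0.996. With a pseudocount of 5, Tagln (-0.70) and Mylk (-0.96) missed the threshold and 6 were called. With a minimum of 20 TPM, Tagln dropped out. No other alternative changed the count of 8. Over the 12780 genes that reached 5 TPM, 550 calls lower became 309 with a pseudocount of 5 and 1170 at a fold of 1.5. The 396 calls higher became 179 and 1467. With the minimum of 20 TPM, 241 of 7189 genes were called lower and 109 higher. With no filter, 1218 of 55536 genes were called lower and 1086 higher. Calls higher outnumbered calls lower at a fold of 1.5 and with length and GC trends removed (465 against 443). Depth limits genes of few reads, such as Tagln, Ppp1r14a, Pcp4l1 (39 and 21 reads) and Ndufa4l2 (29 and 18).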

Other observations

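The genes next to the members in the genome were examined after the members' values were seen, as a description. For each member the nearest protein-coding gene on either side that reached 5 TPM was taken, 20 genes in all. None was called in either direction, 5 were below 0 and their median log2 ratio was 0.17. Over all genes that reached 5 TPM, 4.30% were called lower and 3.10% higher, 38.0% were below 0 and the median was 0.13, so few calls among 20 genes carry little information. Tln1, the talin gene next to Tpm2, stood at 66.3 TPM under DMSO and 58.8 TPM under C3G, and the carbonic anhydrase gene Car9 on its other side at 29.0 and 24.7 TPM, while Tpm2 was 4.44-fold lower. Stambpl1 and Fas, on either side of Acta2, stood at 29.8 against 26.8 TPM and 23.7 against 26.6 TPM.

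Myoglobin (Mb), listed as a skeletal muscle marker, stood at 20.9 TPM under DMSO and 27.9 TPM under C3G, from 135 and 229 reads, in libraries where Ckm, Myh1 and Tnnc2 had none. Ttn, the giant muscle protein titin, was at 0.0138 and 0.0296 TPM.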
